A study of Mus musculus with 18 samples.

Results

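Microglia and astrocytes of control mice were compared by the RNA of 9 sorted libraries, 4 of microglia (animals 1, 2, 4 and 5) and 5 of astrocytes (animals 1 to 5), out of 18 libraries in the series. Genes were taken where at least 4 of the 9 libraries listed 1 TPM or more, which kept 15332 of the 35869 gene symbols in the files. TPM is a share of a library's RNA after division by transcript length. The study sorted both cell types from enzymatically dissociated brains, with inhibitors in the digestion, and set control mice against mice in which Tgfb1 was deleted in cells that express Cx3cr1. All 9 libraries came from C57BL/6 mice labelled WT that carried Cx3cr1CreERT2, a tamoxifen-inducible recombinase driven from the Cx3cr1 gene, and that were given tamoxifen by oral gavage in 5 doses of 180 mg/kg. These controls were therefore neither free of Cre nor untreated, and they did not carry the loxP-flanked Tgfb1 alleles of the 8 KO libraries, which are not used here. The labels give neither the animals' age nor the antibodies or gates of the sort. The remaining library was titled as control astrocytes of animal 3 while its sample code ended like those of microglia, and it entered no comparison.

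Microglia are the resident macrophages of the brain. They arise from yolk sac progenitors, depend on signals through the receptor Csf1r, and are kept in their resting state by TGF-beta. Astrocytes arise from neural progenitors. They clear glutamate and potassium from around synapses, are joined by gap junctions, contact blood vessels through end-feet, and make cholesterol and lactate for other cells. The transcription factor PU.1, encoded by Spi1, is needed for microglia, and nuclear factor I proteins with Sox9 act in the formation of astrocytes.

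Promoters are printed first for the marker genes and then for a few of the genes with large differences, so that the sequences lie beside the levels reported below. Each runs 5′ to 3′ on the gene's strand from 250 bases before to 50 bases after a transcription start in RefSeq (GRCm38.p6). Capitals mark motif matches: GAGGAAGT (a PU.1-type ETS site), TTGGCNNNG (a single nuclear factor I site), TATAAA (a core promoter element, the TATA box), or GGAANNGAAA (an ETS core followed by an interferon regulatory factor core). RUNX (TGTGGTT), SOX (ACAATGG) and CLEAR (TCACGTGA, a lysosomal gene element) motifs were also searched. All searches covered both strands, so a match on the other strand reads as the reverse complement. The markers shown are P2ry12 (chr3:59262936-59263235, minus strand), Sall1 (chr8:89044113-89044412, minus strand), Slc1a2 (chr2:102706188-102706487, plus strand) and Aldoc (chr11:78322823-78323122, plus strand). Sall1 and Aldoc have further starts in the table, and the start nearest the 5′ end of the gene is shown. The only Slc1a2 entry used here starts inside the gene as GENCODE places it (chr2:102658659-102790784), downstream of the annotated 5′ end.
P2ry12: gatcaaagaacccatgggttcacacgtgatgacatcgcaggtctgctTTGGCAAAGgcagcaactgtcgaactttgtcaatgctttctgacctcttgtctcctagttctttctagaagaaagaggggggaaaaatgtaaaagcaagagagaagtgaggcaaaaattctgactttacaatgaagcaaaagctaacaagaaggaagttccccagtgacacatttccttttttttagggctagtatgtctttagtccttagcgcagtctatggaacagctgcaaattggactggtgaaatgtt
Sall1: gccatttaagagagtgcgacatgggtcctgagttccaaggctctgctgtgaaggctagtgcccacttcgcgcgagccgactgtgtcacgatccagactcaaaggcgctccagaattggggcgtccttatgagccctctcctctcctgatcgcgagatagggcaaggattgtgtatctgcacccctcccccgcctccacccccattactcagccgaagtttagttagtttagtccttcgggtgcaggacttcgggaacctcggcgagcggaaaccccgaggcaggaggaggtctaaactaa
Slc1a2: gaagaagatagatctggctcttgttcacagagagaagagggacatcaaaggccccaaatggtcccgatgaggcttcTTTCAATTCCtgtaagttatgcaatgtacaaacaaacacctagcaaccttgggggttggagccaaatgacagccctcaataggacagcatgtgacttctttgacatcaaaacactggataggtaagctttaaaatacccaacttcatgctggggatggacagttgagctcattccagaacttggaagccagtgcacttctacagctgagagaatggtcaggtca
Aldoc: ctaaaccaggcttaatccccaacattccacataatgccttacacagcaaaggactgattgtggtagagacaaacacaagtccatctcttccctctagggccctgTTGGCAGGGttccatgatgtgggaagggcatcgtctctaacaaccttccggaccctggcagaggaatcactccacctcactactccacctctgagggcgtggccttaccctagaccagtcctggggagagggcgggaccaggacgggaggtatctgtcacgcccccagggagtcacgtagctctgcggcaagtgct
The genes with large differences were chosen for holding a motif, after the search. Ctss (chr3:95526536-95526835, plus strand), Cd53 (chr3:106790100-106790399, minus strand) and Pld4 (chr12:112760405-112760704, plus strand) were higher in microglia. Agt (chr8:124569657-124569956, minus strand) and Htra1 (chr7:130935953-130936252, plus strand) were higher in astrocytes.
Ctss: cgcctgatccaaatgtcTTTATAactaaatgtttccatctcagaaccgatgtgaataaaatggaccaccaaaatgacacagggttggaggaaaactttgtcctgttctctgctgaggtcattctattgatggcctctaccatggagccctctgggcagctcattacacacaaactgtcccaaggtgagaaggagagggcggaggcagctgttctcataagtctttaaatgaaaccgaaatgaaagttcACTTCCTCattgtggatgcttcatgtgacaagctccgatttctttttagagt
Cd53: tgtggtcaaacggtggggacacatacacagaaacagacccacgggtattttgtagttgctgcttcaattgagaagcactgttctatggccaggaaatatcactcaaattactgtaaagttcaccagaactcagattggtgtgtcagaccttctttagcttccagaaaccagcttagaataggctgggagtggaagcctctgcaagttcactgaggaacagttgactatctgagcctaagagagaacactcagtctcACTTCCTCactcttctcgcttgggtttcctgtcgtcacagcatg
Pld4: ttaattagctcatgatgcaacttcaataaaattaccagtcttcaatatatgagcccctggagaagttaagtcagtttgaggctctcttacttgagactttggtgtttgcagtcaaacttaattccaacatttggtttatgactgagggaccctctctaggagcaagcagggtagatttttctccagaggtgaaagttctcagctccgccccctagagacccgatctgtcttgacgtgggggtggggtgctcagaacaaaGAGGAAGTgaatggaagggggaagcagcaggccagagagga
Agt: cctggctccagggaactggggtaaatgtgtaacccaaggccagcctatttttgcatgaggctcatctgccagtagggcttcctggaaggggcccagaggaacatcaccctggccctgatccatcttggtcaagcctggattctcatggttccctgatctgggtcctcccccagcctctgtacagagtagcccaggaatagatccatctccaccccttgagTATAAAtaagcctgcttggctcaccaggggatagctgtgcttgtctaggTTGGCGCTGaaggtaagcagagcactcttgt
Htra1: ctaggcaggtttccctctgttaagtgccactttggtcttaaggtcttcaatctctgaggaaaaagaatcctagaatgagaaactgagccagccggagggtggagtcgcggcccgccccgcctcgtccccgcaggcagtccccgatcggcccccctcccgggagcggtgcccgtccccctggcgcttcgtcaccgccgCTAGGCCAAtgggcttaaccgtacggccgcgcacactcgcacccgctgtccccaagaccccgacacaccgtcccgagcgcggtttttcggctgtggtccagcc

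The PU.1-type match lay close to the start in each of the microglial examples. Counted from 1 at the 5′ end of the printed run, where the start is at base 251, it began at base 249 in Ctss, at base 257 in Cd53 and at base 260 in Pld4. The nuclear factor I site began at base 270 in Agt, at base 198 in Htra1 and at base 105 in Aldoc. P2ry12, a microglial gene, also held a nuclear factor I site, at base 48, and no PU.1-type match, and the internal start of Slc1a2, an astrocyte gene, held the ETS and interferon regulatory factor pair. The matches are therefore not exclusive to either cell type.

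Over all genes, GAGGAAGT stood in 3.13% of the 13401 promoters of tested genes and in 3.11% of all 32544 promoters in the table. Among genes higher in microglia by at least 5 on the log2 scale, 37 of 254 promoters (14.6%) held it, against 6 of 367 (1.63%) among genes lower by at least 5. The nuclear factor I site showed the reverse order, in 36 of 254 promoters (14.2%) of the microglial genes and 98 of 367 (26.7%) of the astrocyte genes, with 19.7% over all tested genes and 17.1% over the whole table. RUNX matches stood in 8.66% and 4.63% of the same promoters (3.79% of all tested and 5.29% of the table), and SOX matches in 0.787% and 3.00% (2.31% and 3.68%). TATA boxes stood in 12.2% and 10.1% (7.74% and 13.6%), and the CLEAR motif in 0.787% and 0.545% (1.80% and 0.983%). The ETS and interferon regulatory factor pair stood in 5.51% and 2.45% (2.41% and 2.73%). These shares describe letters in a window, with several promoters from some genes, and were not tested.

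The control libraries of each cell type resembled each other closely and differed from those of the other cell type across most of the transcriptome. Pearson's r of log2(TPM + 1) over the tested genes, which are not independent replicates, was between 0.957 and 0.985 within microglia, between 0.946 and 0.980 within astrocytes, and between 0.547 and 0.597 across cell types. Microglial libraries listed 12456 to 12849 genes at 1 TPM or more and astrocyte libraries 14086 to 15011, and Cst3 was the most abundant gene in all 9. Mitochondrially encoded genes took 2.11% to 2.56% of microglial TPM and 5.25% to 5.51% of astrocyte TPM. Read depth is unknown, because TPM keeps none, and values have 1 decimal, so anything under 0.05 TPM is listed as 0.

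Of the 15332 genes tested with limma on log2(TPM + 1), 10078 (65.7%) passed an adjusted p of 0.05. In microglia 4016 genes (26.2%) were higher and 6062 (39.5%) were lower, and 8646 genes (56.4%) showed no overlap between the 4 microglial and 5 astrocyte values. Differences below are log2(TPM + 1) in microglia minus that in astrocytes with their standard error, and they understate the change of low genes. At least 1 log2 unit separated the cell types for 2575 genes higher and 4484 genes lower in microglia, at least 5 units for 315 and 456, and at least 8 units for 55 and 45. The genes lower in microglia thus outnumbered the higher ones at sizes 1 to 5, and the order turned at 8. The median difference of all tested genes was -0.19, and 39.8% of the calls were higher in microglia. That balance depended on the scaling, since quantile normalization, which forces all libraries to 1 distribution, gave a median of 0.11 with 5534 genes higher and 4850 lower, 53.3% of calls higher. Gene lists are counted over the members that passed the filter. Each count of higher and lower members stands beside the 26.2% and 39.5% of all tested genes. Below it were 6 of 24 complement genes, 5 of 20 BMP genes, 4 of 33 FGF, Notch, Wnt and Hedgehog genes, 4 of 26 cytokine genes, 3 of 20 purinergic genes, 3 of 24 synapse-related genes and at most 2 members of each other glial list except the reactive astrocyte genes. TPM are shares, so a gene can stand higher in 1 cell type because other RNA there is lower, and in bulk samples fewer cells of a type and less RNA per cell cannot be told apart.

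**Figure D1:**
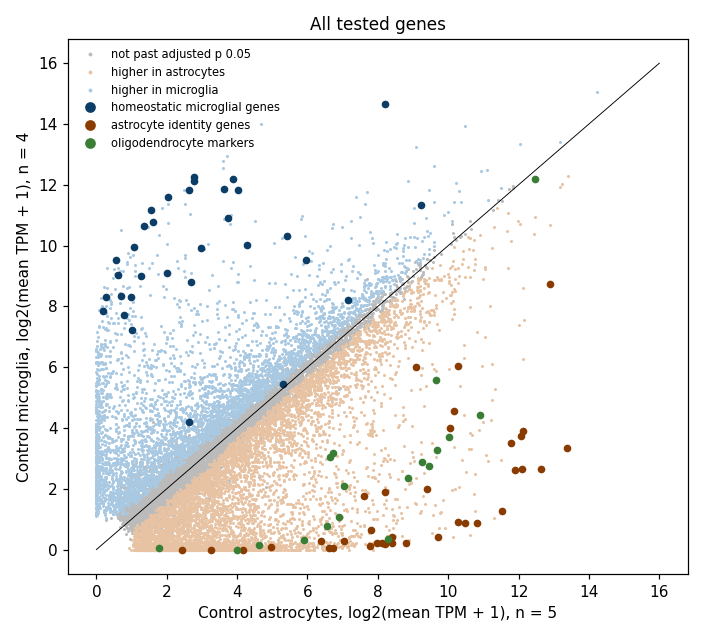
Mean level of each tested gene in control astrocytes (x axis, n = 5) and control microglia (y axis, n = 4), both as log2(mean TPM + 1), with the line of equal level. The 32 homeostatic microglial genes lie on or above the line and the 36 astrocyte identity genes below it.

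The markers placed every library with its label. P2ry12, the purinergic receptor that guides microglial processes (chr3:59216272-59262871 in GENCODE M21, GRCm38), was at 3684.4, 3440.6, 4100.6 and 3760.7 TPM in the microglia of animals 1, 2, 4 and 5, and at 10, 13, 14.7, 8.4 and 10.3 TPM in the astrocytes of animals 1 to 5. The lowest microglial value was far above the highest astrocyte value, and the difference in P2ry12 was 8.27 ± 0.15 (SE, adjusted p = 4.06e-11). Slc1a2, the main glutamate transporter of the forebrain (chr2:102658659-102790784), was at 0.2, 0.3, 0.5 and 0.3 TPM in microglia and at 337.3, 310.5, 340.4, 335.0 and 377.6 TPM in astrocytes (-8.01 ± 0.11, adjusted p = 2.14e-11). Aldoc, the brain form of the glycolytic enzyme aldolase (chr11:78322968-78327781), was at 16.9, 14, 9.7 and 8.7 TPM in microglia and at 4449.6, 5050.2, 3752.1, 4175.5 and 4233.0 TPM in astrocytes (-8.38 ± 0.18, adjusted p = 6.75e-11). Microglial libraries of animals 1 and 2 held more Aldoc than those of animals 4 and 5, by under 10 TPM, and no marker overlapped between cell types.

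**Figure D2:**
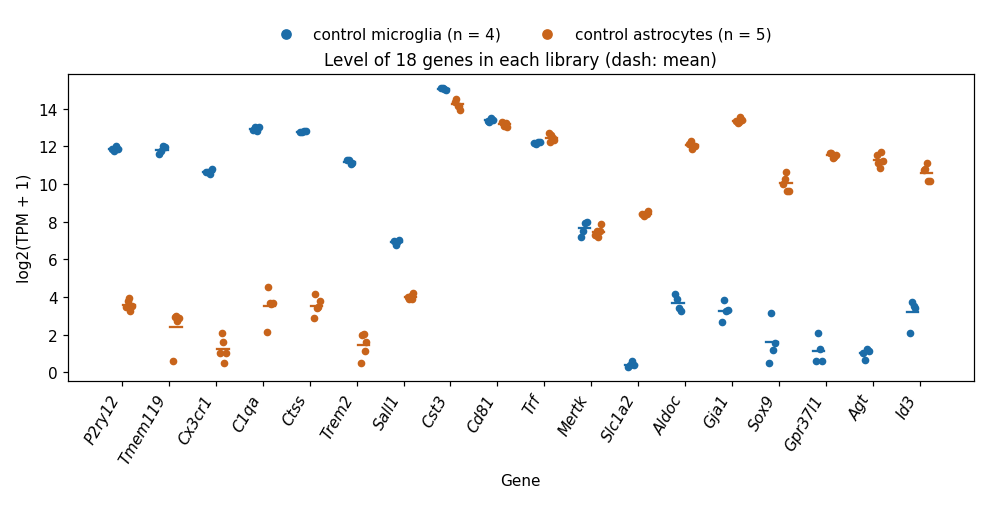
Level of 18 genes as log2(TPM + 1) in each control microglial library (blue, n = 4) and control astrocyte library (orange, n = 5), with a dash at the mean. P2ry12 to Sall1 separate upward in microglia, Slc1a2 to Id3 upward in astrocytes, and Cd81, Trf and Mertk stand close together.

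Selplg, Trem2, P2ry13, Fcrls, C1qb, Pld4, Laptm5, Ly86, Cx3cr1, Tmem119 and C1qa were among the 12 largest differences in favour of microglia. They encode surface receptors and adhesion proteins, complement subunits and lysosomal proteins of macrophages. Tmem119, a membrane protein used to tell microglia from other macrophages, was at 3117.8, 3419.3, 4129.6 and 3970.2 TPM in microglia and at 0.5, 6.7, 6.9, 5.6 and 6.3 TPM in astrocytes (9.41 ± 0.45). Cx3cr1, the fractalkine receptor from whose locus the recombinase is expressed, was at 1579.5, 1613.2, 1474.1 and 1783.0 TPM in microglia and at 1.0, 3.3, 2.1, 0.4 and 1.0 TPM in astrocytes (9.41 ± 0.28). Trem2, a lipid-sensing receptor that signals through Tyrobp, was at 2104.7 to 2505.9 TPM in microglia and at 0.4 to 3.1 TPM in astrocytes (9.74 ± 0.29). Among these, values in astrocytes ran from 0.4 to 44.4 TPM, so none was listed at 0 there. First in size was the entry Mir6961 (9.97 ± 0.33), a stretch of 67 bases inside Bin2 on the same strand. Bin2, named here for that overlap after its values were seen, had means of 553 TPM in microglia and 0.48 TPM in astrocytes, and reads of the 2 entries cannot be separated in these files.

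On the astrocyte side the 12 largest differences included Gpr37l1, Agt, Omg, Gja1, Atp1b2, Htra1, Mir7653, Acsbg1, F3, Ntsr2 and Pantr1. Gpr37l1, an orphan G protein-coupled receptor of astrocytes, was at 0.5, 3.2, 1.4 and 0.5 TPM in microglia and at 3175.5, 3271.3, 2677.7, 2754.3 and 2989.5 TPM in astrocytes (-10.41 ± 0.27). Agt, which encodes angiotensinogen, was at 1.0, 0.6, 1.4 and 1.2 TPM against 2947.3, 2215.9, 1835.1, 3298.9 and 2363.1 TPM (-10.26 ± 0.18). Astrocyte libraries varied in Agt, lowest in animal 3 and highest in animal 4, and none came near a microglial value. Gja1, the gap junction protein connexin 43, was at 5.3 to 13.4 TPM against 9674.1 to 11976.7 TPM (-10.10 ± 0.19). F3, tissue factor, was at 1.9 to 7.5 TPM against 3545.7 to 4985.4 TPM (-9.53 ± 0.28). Omg is better known as a myelin glycoprotein of oligodendrocytes. Omg was at 0.1 to 0.7 TPM in microglia and at 1472.7 to 1764.6 TPM in astrocyte libraries, which also held other oligodendrocyte RNA, given below. Mir7653 is a stretch of 61 bases inside Tlcd1 on the same strand, with means of 0.3 and 143 TPM for Tlcd1, also named after its values were seen.

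The most abundant transcripts named the work of each cell. In microglia the 10 highest genes by mean TPM included Cst3, C1qb, Ctsd, Cd81, Itm2b, B2m, C1qa, Ctss and Tmsb4x, of which Ctsd is a lysosomal hydrolase, Ctss is a cysteine protease and Cst3 is a secreted inhibitor of such proteases. In astrocytes, leaving out mitochondrially encoded genes, they were Cst3, Gja1, Cd81, Ckb, Slc1a3, Atp1b2, Trf, Apoe, Id2 and Tspan7. Cst3 and Cd81 were the 2 genes in both. Cst3 took 3.40% of microglial and 1.94% of astrocyte TPM, and was at 32740.9 to 35048.2 TPM against 15828.6 to 23821.4 TPM (0.83 ± 0.10, adjusted p = 3.74e-05). Cd81, a tetraspanin, was at 10245.4 to 11669.2 TPM in microglia and at 8295.9 to 10093.2 TPM in astrocytes (0.21 ± 0.07, adjusted p = 0.0197), and its direction turned under quantile normalization (-0.16, adjusted p = 0.107). Trf, the iron carrier transferrin, was at 4468.3 to 4846.3 TPM in microglia and at 4867.5 to 6620.2 TPM in astrocytes (-0.27 ± 0.09, adjusted p = 0.0227).

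Nearly all homeostatic microglial genes were higher in microglia, 31 of 32 tested with a median difference of 7.73, beside 26.2% higher and a median of -0.19 over all genes. Their summed level was 72184.6 to 75839.6 TPM in microglia and 1076.4 to 1533.4 TPM in astrocytes. The list spans surface receptors such as P2ry13 (4333.3 to 5199.7 against 1.5 to 10.7 TPM) and Csf1r, the receptor on which microglial survival depends (847.7 to 1152.4 against 0.1 to 2.3 TPM, 9.02 ± 0.32). It also holds the fructose transporter Slc2a5 (479.8 to 547.0 against 0.0 to 1.3 TPM). The smallest of the called differences was that of Gas6, a bridging ligand for the receptors Mertk and Axl, at 234.2, 390.7, 274.3 and 294.2 TPM against 154.8, 124.2, 124.9, 147.3 and 159.0 TPM (1.05 ± 0.15, adjusted p = 0.000107). Sparc, a matrix protein often listed with microglia, was at 2470.2 to 2796.4 TPM against 411.1 to 824.3 TPM, and so was plentiful in both. The member that missed the threshold was Adgrg1, an adhesion receptor named here for that, with means of 42.9 and 38.9 TPM.

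Most microglial transcription factors were higher in microglia. Of 22 microglial factors tested, 19 were higher in microglia and 1 was lower, beside 26.2% and 39.5% over all genes. The other 2 were not past the threshold, and the median of the list was 4.24. Hhex (165.5 to 187.0 against 0.0 to 1.5 TPM, 7.04 ± 0.25), Irf8 (6.71 ± 0.25), Lyl1 (6.50 ± 0.14) and Maf (6.49 ± 0.31) were among the factors with the largest differences, with Batf3 at 64.9 to 106.6 TPM in microglia and listed at 0 in all 5 astrocyte libraries. Irf8 and Maf are regulators of macrophage identity. Sall1, a zinc finger repressor that marks microglia among macrophages, was at 123.0, 108.2, 122.3 and 128.8 TPM in microglia and at 15.2, 13.9, 15.3, 13.7 and 17.8 TPM in astrocytes (2.91 ± 0.11, adjusted p = 3.89e-09). Astrocyte libraries therefore held 12.6% of the microglial Sall1 level, against 0.301% for P2ry12 and 0.142% for Tmem119. Spi1, picked after its values were seen, was at 18.6, 24.6, 30.5 and 19.3 TPM in microglia and at 0.1 TPM or less in astrocytes. Nr1h3, a nuclear receptor for oxysterols, ran the other way at 0.0 to 1.1 TPM in microglia and 4.4 to 11 TPM in astrocytes (-2.27 ± 0.29).

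Receptors that bind antibody, sugars and microbial products were microglial with few exceptions. All 23 tested Fc receptor, ITAM and Siglec genes (median 7.18) and all 22 pan-leukocyte signalling genes (median 6.88) were higher in microglia, and so were all 7 phagocyte oxidase genes (median 6.11), where 65.7% of all genes passed in either direction. Fcer1g, the signalling chain of Fc receptors, was at 5255.8 to 6583.7 TPM against 3.7 to 16.6 TPM, and Fcgr3 at 1337.0 to 1761.5 against 0.2 to 3.6 TPM. Of 27 pattern recognition and inflammasome genes, 24 were higher, among them the lipopolysaccharide co-receptor Cd14 (1445.1 to 2053.8 against 0.2 to 7.0 TPM) and the endosomal RNA receptor Tlr13 (418.7 to 751.9 against 0.0 to 2.0 TPM). Tlr3, the receptor for double-stranded RNA, was the exception past the threshold, at 18.5, 14.4, 29.6 and 25.4 TPM in microglia and at 38.6, 35.5, 43.9, 47.0 and 46.2 TPM in astrocytes (-0.95 ± 0.20, adjusted p = 0.00166). All its astrocyte values lay above all its microglial values.

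Complement genes were divided between the cell types by role. Of 18 tested, 11 were higher and 6 lower in microglia, beside 26.2% and 39.5% over all genes, with a list median of 3.03. The subunits of C1q, which starts the classical cascade, were microglial: C1qa was at 7617.8, 8258.3, 7117.1 and 8272.6 TPM against 3.4, 21.9, 11.8, 11.2 and 11.8 TPM, and C1qb at 15816.7 to 16654.2 against 9.2 to 44.4 TPM. C1qc was lower and more variable than its partners, at 336.6, 562.8, 958.0 and 287.7 TPM against 0.0 to 1.5 TPM (8.48 ± 0.39). Receptors were microglial as well, with C3ar1 at 542.5 to 620.5 against 0.2 to 1.2 TPM, and the complement receptor 3 chains Itgam (7.83 ± 0.26) and Itgb2 (7.61 ± 0.32). The members higher in astrocytes included the C1 inhibitor Serping1 (0.0 to 1.1 against 5.8 to 18.3 TPM), the lectin pathway protease Masp1 (0.4 to 7.4 against 16.9 to 29.5 TPM) and Cd59a, which blocks the membrane attack complex (0.7 to 1.0 against 3.9 to 9.8 TPM). C3, the central component, lay below the filter in both, at 3.0, 0.8, 0.5 and 0.5 TPM in microglia and at 0.9, 1.0, 0.9, 0.0 and 0.0 TPM in astrocytes.

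Antigen presentation genes were higher in microglia without exception among those tested, 9 of 9 for MHC class II (median 5.49) and 15 of 15 for MHC class I and peptide loading (median 1.71). Class II levels differed between animals. Cd74, the invariant chain, was at 1500.9, 901.9, 683.8 and 1819.3 TPM in microglia and at 30.0, 82.6, 7.6, 14.8 and 52.8 TPM in astrocytes, and H2-Aa was at 620.9, 416.8, 242.1 and 807.3 TPM against 0.4 to 21.3 TPM. Among microglia, animals 1 and 5 were high and animal 4 low in both genes, and the astrocyte values followed another order. The 10 border-associated macrophage markers, genes of the macrophages along vessels and meninges, were all higher in the microglial libraries. Their summed level was 556.4, 447.4, 463.5 and 815.1 TPM there and 4.9 to 14.4 TPM in astrocytes, none was at 0 in every microglial library, and it was highest in the animal with the most Cd74. Their part in the class II values was not tested. B2m, the light chain of class I, was at 8801.0 to 10235.7 TPM against 452.3 to 588.3 TPM (4.17 ± 0.09), and the immunoproteasome subunits Psmb8 and Psmb9 differed by 5.61 ± 0.14 and 5.79 ± 0.37.

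Most lysosomal genes were higher in microglia, and some were higher in astrocytes. Of 34 tested, 23 were higher, 8 lower and 3 not past the threshold, with a median of 1.55, beside 26.2% higher and 39.5% lower over all genes. Their summed level was 104043 to 106663 TPM in microglia and 23547.4 to 31632.4 TPM in astrocytes. Cst3, the secreted protease inhibitor, was counted in this list and was its most abundant member in both cell types. Its means were 33975.3 TPM in microglia and 19359.2 TPM in astrocytes, so it made up most of the astrocyte sum. Large differences lay in Ctss (6985.4 to 7225.4 against 6.3 to 16.6 TPM, 9.26 ± 0.21), Cd68 (1946.1 to 2251.8 against 4.0 to 6.8 TPM), Ctsh and the asparaginyl protease Lgmn (2964.4 to 3212.5 against 147.4 to 187.9 TPM). Ctsk, a collagen-degrading cathepsin, was at 0.0 to 0.3 TPM in microglia and at 9.9 to 15 TPM in astrocytes (-3.56 ± 0.18), and the tetraspanin Cd63 was at 320.5 to 379.3 against 778.8 to 1009.4 TPM (-1.38 ± 0.10). Gla, alpha-galactosidase A, was also higher in astrocytes (-1.60 ± 0.25).

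Purinergic genes were split between the cell types, 8 higher and 8 lower in microglia of 17 tested, beside 26.2% and 39.5% over all genes. The median of the list was 0.67. The median turned to -0.17 when only animals 3, 4 and 5 were used, with 8 genes still called in each direction. Microglia held the nucleotide receptors P2ry12, P2ry13 and P2ry6 (242.9 to 312.8 against 0.0 to 0.7 TPM) and the adenosine receptor Adora3 (436.7 to 562.1 against 0.1 to 1.4 TPM, 8.52 ± 0.23). Astrocytes held Adora2b, a low-affinity adenosine receptor (0.5 to 5.6 against 336.6 to 419.7 TPM, -7.11 ± 0.36), and the adenosine kinase Adk, which clears adenosine (5.0 to 8.9 against 274.0 to 305.4 TPM, -5.24 ± 0.15). The enzymes that hydrolyse extracellular ATP differed as well. Entpd2 was at 0.4, 0.8, 0.0 and 0.0 TPM in microglia and at 380.3, 351.2, 330.3, 347.2 and 359.2 TPM in astrocytes (-8.14 ± 0.18). Its relative Entpd1, picked after its values were seen, had means of 254 TPM in microglia and 4.14 TPM in astrocytes.

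Genes known to be induced in microglia around plaques and in degeneration were mixed. Of 17 tested, 9 were higher and 7 lower in microglia, beside 26.2% and 39.5% over all genes. The list median of 1.51 turned to -0.34 when a filter of 5 TPM left 7 called in each direction. Ccl6 (664.8 to 777.3 against 0.1 to 2.1 TPM), Cst7 (26.4 to 78.2 against 0.0 to 0.1 TPM) and Clec7a (15.9 to 24.6 TPM, listed at 0 in every astrocyte library) were microglial. Apoe, the lipid carrier, was at 1310.1, 1336.4, 865.8 and 1829.3 TPM in microglia and at 6205.5, 6539.2, 4999.3, 5192.3 and 4849.0 TPM in astrocytes (-2.09 ± 0.19, adjusted p = 2.97e-06). Fabp5, Ank, Gpnmb, Csf1 and Axl were also higher in astrocytes.

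Cytokine and chemokine ligands were largely microglial in number, 14 higher and 7 lower of 22 tested, with a median of 3.53. Ccl9 (247.5 to 276.9 TPM), Ccl12 (327.0 to 406.3 TPM) and Il1a (86.1 to 111.1 TPM) stood at 0.0 to 8.0 TPM in astrocytes. Ccl6, given above, had the largest difference of the group (8.70 on the log2 scale), and Cxcl14 the largest towards astrocytes. Cxcl14 was at 0.1, 2.7, 0.7 and 1.7 TPM in microglia and at 550.2, 662.4, 555.2, 559.7 and 595.8 TPM in astrocytes (-8.13 ± 0.30), and Il33, a nuclear alarmin, was at 0.5 to 1.3 against 284.2 to 447.2 TPM (-7.63 ± 0.17).

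All 36 astrocyte identity genes were lower in microglia, with a median of -7.71, where 39.5% of all genes were lower. Their summed level was 56196.4 to 64703.8 TPM in astrocytes and 483.2 to 860.4 TPM in microglia. Slc1a3, the glutamate transporter GLAST, was the largest part of that microglial sum, at 274.9, 319.6, 608.3 and 480.8 TPM, against 7120.9 to 8021.3 TPM in astrocytes (-4.24 ± 0.20). Gfap, the intermediate filament used to stain astrocytes, reached 187.7 to 210.8 TPM in astrocytes and 0.1 to 4.5 TPM in microglia. It stood far below Gja1, Slc1a3, Aldoc and Clu (3236.1 to 4064.7 TPM) on this length-scaled unit. Of 25 astrocyte transcription factors, 24 were higher in astrocytes and 1, Glis3, was higher in microglia (1.4 to 2.4 against 0.6 to 1.5 TPM, 0.54 ± 0.18, adjusted p = 0.0248). Sox9 was at 0.4, 8.0, 1.3 and 1.9 TPM in microglia and at 1022.6, 1225.1, 1608.8, 803.6 and 806.6 TPM in astrocytes (-8.45 ± 0.46). Hes5, a target of Notch, was at 0.0 to 0.2 against 262.5 to 789.7 TPM (-8.59 ± 0.28), and animal 3 was the highest in both Sox9 and Hes5. Dbx2, a homeobox gene, was at 343.7 to 482.4 TPM in astrocytes.

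Genes for handling transmitters and ions were astrocytic. Of 23 glutamate, GABA and glycine genes, 20 were lower in microglia and 3 were not past the threshold (median -4.64). The GABA transporter Slc6a11 (166.2 to 280.2 TPM), the GABA transaminase Abat (143.6 to 207.7 TPM) and the metabotropic glutamate receptor Grm3 (576.9 to 711.1 TPM) were each at 3.1 TPM or less in microglia. Of 18 water channel, gap junction and ion pump genes, 15 were lower in microglia and 3 not past it (median -5.36). Atp1b2, a glial subunit of the sodium pump, was at 5534.6 to 7367.3 TPM in astrocytes and under 10 TPM in microglia. Gjb6 (connexin 30), Mlc1 and Hepacam, which sit at astrocyte contacts, differed by -9.29 ± 0.18, -8.16 ± 0.13 and -8.57 ± 0.14. The water channel Aqp4, picked after its values were seen, had means of 0.225 and 130 TPM.

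Receptors and targets of developmental signals were also astrocytic. Of 29 FGF, Notch, Wnt and Hedgehog genes tested, 27 were lower in microglia, 0 higher and 2 not past the threshold (median -3.42). Hey1 and Heyl, Notch targets, were at 102.1 to 150.0 and 25.4 to 66 TPM in astrocytes, the Wnt receptor Fzd2 at 48.2 to 86.1 TPM, the secreted Wnt modulator Dkk3 at 162.2 to 201.4 TPM and the Hedgehog co-receptor Boc at 30.6 to 45.8 TPM. All 5 were at 1.4 TPM or less in microglia. Of 15 BMP pathway genes, 10 were lower and 3 higher in microglia (median -3.54). The BMP targets Id3 (3.2 to 12.2 against 1130.2 to 2211.3 TPM, -7.41 ± 0.34), Id4 and Id1 were astrocytic, as was the ligand Bmp7 (26.4 to 39.6 TPM). Id2 was at 162.5 to 207.3 TPM in microglia and at 4303.1 to 4807.4 TPM in astrocytes. The 3 members higher in microglia were receptors and a transducer: Acvrl1 (2.40 ± 0.24), Smad1 (1.33 ± 0.24) and Bmpr2, at 17.6, 8.7, 21.0 and 16.6 TPM against 7.2, 6.9, 9.2, 11.2 and 11.4 TPM, which overlapped (0.70 ± 0.25, adjusted p = 0.0322).

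Proteins that astrocytes secrete around synapses followed the same direction, 18 of 21 lower in microglia with a median of -4.63. Sparcl1, also called hevin, was at 4.2, 13, 6.9 and 2.8 TPM in microglia and at 2952.5, 2981.9, 2545.3, 3129.7 and 2759.3 TPM in astrocytes (-8.71 ± 0.31). Its relative Sparc was the member higher in microglia. The perineuronal matrix proteins Ncan (317.6 to 372.8 TPM), Bcan (224.8 to 287.7 TPM) and Hapln1 (98.3 to 172.9 TPM) and the phagocytic receptor Megf10 (55.1 to 104.0 TPM) were at 0.9 TPM or less in microglia. Chrdl1, which promotes synapse maturation, was at 22.0 to 43.9 TPM in astrocytes and listed at 0 in all 4 microglial libraries. Mertk, another phagocytic receptor, did not separate the cells: it was at 146.1, 181.8, 247.1 and 251.5 TPM in microglia and at 154.7, 181.5, 142.4, 179.3 and 230.9 TPM in astrocytes (0.20 ± 0.19, adjusted p = 0.375).

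Metabolic genes leaned towards astrocytes. Cholesterol synthesis was the clearest, with 21 of 22 genes lower in microglia and a median of -3.54. Sqle, squalene epoxidase, was at 5.8, 23.2, 5.4 and 7.5 TPM in microglia and at 673.8, 711.7, 877.1, 718.3 and 715.4 TPM in astrocytes (-6.24 ± 0.34), and Msmo1, a sterol oxidase, at 156.7 to 182.6 against 3822.4 to 4534.8 TPM (-4.63 ± 0.07). Ebp, a sterol isomerase, was the exception, at 159.8 to 211.0 against 88.6 to 118.2 TPM (0.83 ± 0.12). Of 25 lipid transport and fatty acid oxidation genes, 15 were lower and 4 higher (median -1.38). Clu and Fabp7, a brain fatty acid carrier (1058.0 to 2172.2 TPM in astrocytes), were astrocytic, and Lpl (3.96 ± 0.31), the cholesterol exporter Abcg1 (2.01 ± 0.11) and the scavenger receptor Cd36 (2.00 ± 0.16) were microglial.

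Glycolysis and glycogen genes were mostly lower in microglia, and some isoforms went the other way. Of 23 glycolysis and transport genes, 16 were lower and 4 higher in microglia (median -1.31). Picked after their values were seen, the chain enzymes Gpi1, Aldoa, Tpi1 and Eno1 differed by -1.46, -1.31, -1.76 and -1.64. The shift was not uniform. Also picked so, Pgk1 and Pgam1 differed by -1.39 and -1.16, Pkm, Ldhb and Ldha by -0.80, -0.68 and -0.35, and Pfkl by 0.09. Microglia held Hk2 (78.1 to 108.9 against 0.6 to 4.0 TPM), Hk3 (31.0 to 39.8 against 0.0 to 0.1 TPM), both hexokinases, and Slc2a5. Astrocytes held Aldoc and the phosphofructokinases Pfkm (98.9 to 149.5 against 1.4 to 2.2 TPM) and Pfkp (32.1 to 41.7 against 0.5 to 1.6 TPM). The glucose transporter Slc2a1, picked after its values were seen, had means of 64.2 and 381 TPM. Of 11 glycogen genes, 10 were lower in microglia (median -3.11), led by Ppp1r3c, which targets a phosphatase to glycogen (0.0 to 0.5 against 239.1 to 330.9 TPM, -7.90 ± 0.16), and the glycogen phosphorylases Pygm (-5.71 ± 0.52) and Pygb (-3.92 ± 0.08).

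Respiratory chain genes differed by small and uniform amounts. Of 31 nuclear oxidative phosphorylation genes, 30 were lower in microglia, with a median of -1.0 and a range from -1.71 (Cox6c) to 0.06. All 13 mitochondrially encoded genes were lower too, with a median of -1.26. The median of the nuclear genes was -0.91 under median-of-ratios scaling, -0.92 under quantile normalization and -1.04 in TPM rescaled without mitochondrially encoded genes. Cytosolic ribosomal protein genes went the other way, 34 of 38 higher in microglia and 0 lower, with a median of 0.82. Their summed level was 14187.4 to 21332.2 TPM in microglia and 8169.2 to 9639.5 TPM in astrocytes. Of 15 broadly expressed reference genes, 6 were higher and 4 lower (median 0.06), a share of 66.7% called beside 65.7% over all genes. Actb was at 5358.1 to 5970.1 against 1615.1 to 2615.2 TPM (1.55 ± 0.12), Gapdh at 94.4 to 125.1 against 273.7 to 346.1 TPM (-1.45 ± 0.11) and Hprt at 353.3 to 414.5 against 48.3 to 73.5 TPM (2.65 ± 0.12).

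Redox genes were mostly astrocytic, 17 lower and 3 higher in microglia of 23 (median -1.65). The metallothioneins Mt2 (1022.9 to 1955.1 against 2.0 to 19.9 TPM in microglia) and Mt3 (2046.3 to 3050.3 against 5.3 to 52.0 TPM) and the glutathione transferases Gstm1 and Gstm5 (3819.8 to 5237.5 against 64.8 to 91.0 TPM) stood far higher in astrocytes. Mt2 and Mt3 were highest among microglial libraries in animal 2. Gpx1 was the microglial glutathione peroxidase (947.7 to 1510.5 against 135.4 to 166.5 TPM, 3.00 ± 0.14), and Hmox1 (1.48 ± 0.19) and Nfe2l2 (1.20 ± 0.11), which encodes the regulator NRF2, were higher in microglia as well.

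**Figure D3:**
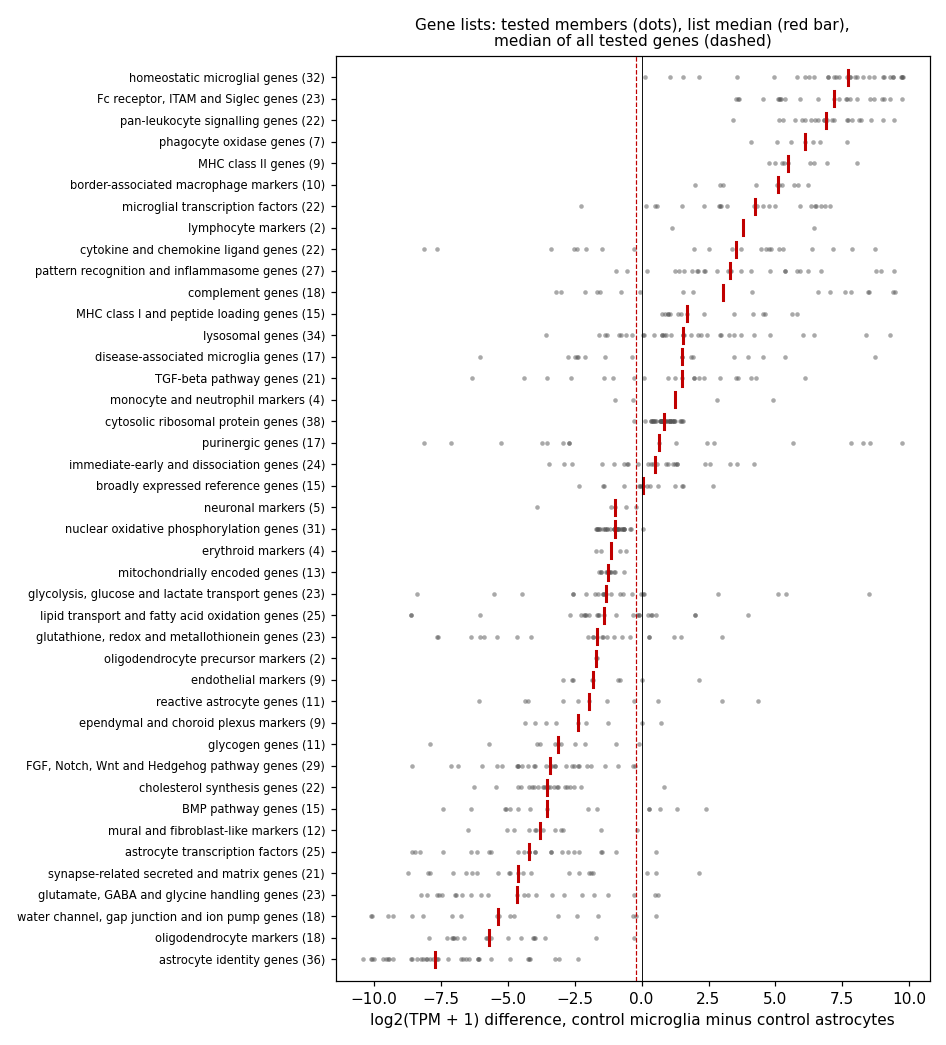
Difference in log2(TPM + 1), control microglia (n = 4) minus control astrocytes (n = 5), of each tested member of 42 gene lists (dots, number tested in brackets), with the list median (red bar) and the median of all tested genes (dashed, -0.19). Immune receptor lists lie to the right, astrocyte and synapse lists to the left, and ribosomal and respiratory lists form narrow bands near 1 and -1.

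TGF-beta ligands and receptors were divided between the cell types. TGF-beta proteins are secreted in a latent form, held by proteins such as Nrros, freed by integrins such as that of Itgb8, and sensed by Tgfbr2 with Tgfbr1. Of 21 pathway genes tested, 13 were higher and 5 lower in microglia, with a median of 1.5. The study's target Tgfb1 (chr7:25687002-25705077) was low, at 3.4, 2.9, 2.9 and 2.8 TPM in microglia, and at 0.0, 0.0, 0.1, 0.1 and 0.0 TPM in astrocytes (1.94 ± 0.13, adjusted p = 2.77e-07). Every microglial value was above every astrocyte value, and 3 of the 5 astrocyte libraries listed it at 0. The other ligands were astrocytic: Tgfb2 was at 0.0, 0.0, 0.2 and 1.0 TPM against 27.0, 22.1, 26.4, 20.3 and 31.1 TPM (-4.39 ± 0.23), and Tgfb3 at 0.0, 0.0, 0.1 and 0.0 TPM against 12, 13.7, 5.9, 11.2 and 14.3 TPM (-3.55 ± 0.23). Tgfbr1 was at 393.8, 348.2, 577.5 and 472.0 TPM in microglia and at 4.0, 4.4, 6.0, 6.7 and 6.2 TPM in astrocytes (6.11 ± 0.19), and Tgfbr2 at 72.5 to 82.9 against 1.3 to 4.8 TPM (4.26 ± 0.25). Both receptors were therefore microglial in these libraries, while Itgb8 was astrocytic (0.0 to 0.2 against 58.5 to 105.5 TPM, -6.35 ± 0.18). Its partner chain Itgav did not pass the threshold, at 28.3 to 40.0 against 25.9 to 55.7 TPM. Eng, a co-receptor, and Skil, a target and inhibitor of the pathway, were higher in microglia (3.59 ± 0.51 and 4.09 ± 0.32). Nrros, picked after its values were seen, had means of 79.0 and 18.1 TPM.

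Over 28 ligand and receptor pairs with 54 genes, 46 genes were tested, 21 higher in microglia, 23 higher in astrocytes and 2 not past the threshold. Of all tested genes 26.2% were higher in microglia and 39.5% lower. In 8 pairs the ligand was higher in astrocytes and its receptor in microglia. They were Csf1 and Il34 with Csf1r, Cx3cl1 with Cx3cr1, Tgfb2 and Tgfb3 with Tgfbr2, Cd200 with Cd200r1, Cd47 with Sirpa, and Apoe with Trem2. Csf1 was at 2.3, 6.6, 4.3 and 5.1 TPM in microglia and at 30.6, 35, 29.4, 20.7 and 23.6 TPM in astrocytes (-2.41 ± 0.25). Il34, the other ligand of Csf1r and chiefly a neuronal product in the brain, reached 0.5 to 4.6 TPM in astrocytes. Cx3cl1, known mainly from neurons, was at 0.1 to 0.8 against 8.5 to 19.1 TPM (-3.40 ± 0.24). Cd200, which restrains microglia, was at 0.0 to 0.9 against 4.5 to 16.3 TPM (-2.82 ± 0.36) with its lowest astrocyte value in animal 2 and its highest in animal 4. Il34 also had its lowest astrocyte value in animal 2 and its highest in animal 4, as did the mural and fibroblast-like marker sums below. The other ligands of these 8 pairs did not. For every pair, which cells of the sorted astrocyte libraries held a gene was not tested. Cd47, whose protein also restrains phagocytes, was close between the cells, at 30.8 to 39.8 against 48.2 to 57.7 TPM, yet without overlap (-0.55 ± 0.11, adjusted p = 0.00102).

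In 4 pairs the ligand was higher in microglia and the receptor in astrocytes: Gas6 with Axl, Osm with Osmr, Sema4d with Plxnb1, and Pdgfb with Pdgfrb. Osm, oncostatin M, was at 31.3, 42.0, 50.8 and 56.7 TPM in microglia and at 0.0 or 0.1 TPM in astrocytes (5.44 ± 0.18), and its receptor at 0.0 to 0.3 against 1.5 to 5.2 TPM (-1.97 ± 0.28). Osmr was at 1.5, 2.0, 4.0, 5.2 and 4.5 TPM in the astrocytes of animals 1 to 5, so it too was highest in animal 4. Pdgfb was at 9.2 to 11.1 against 0.0 to 0.5 TPM, and Pdgfrb, a receptor of mural cells, at 12.4 to 17.4 TPM in astrocyte libraries. In 4 pairs both genes were higher in microglia: Tgfb1 with Tgfbr1, Tnf with Tnfrsf1a, Il6 with Il6ra, and Ccl2 with Ccr2. Il6 was at 25.5, 16.9, 33.8 and 22.4 TPM in microglia and listed at 0 in every astrocyte library, and Tnf was at 2.1 to 8.2 TPM in microglia and listed at 0 in astrocytes. In 2 pairs both were higher in astrocytes, Hbegf with Egfr and Jag1 with Notch1. Hbegf was at 13.9 to 19.6 against 135.6 to 199.0 TPM and Egfr at 0.0 to 1.5 against 29.4 to 33.3 TPM.

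The 8 genes of the pairs below the filter were each compared by a two-sided exact permutation test over all assignments of the 9 libraries, adjusted over the 8 genes. These assignments treated the libraries as independent, although libraries with the same number came from the same animal. The permutation p-values therefore take no account of that pairing, and whether the differences hold within animals was not tested. Il1rl1, the receptor of Il33, was at 2.4, 0.1, 2.7 and 3.4 TPM in microglia and listed at 0 in all astrocyte libraries (exact p = 0.00794, adjusted 0.0317), with animal 2 near 0. Bdnf was at 0.0 to 0.1 against 0.4 to 0.6 TPM (exact p = 0.00794, adjusted 0.0317). Cxcr4 and Il1r1 had adjusted permutation p of 0.0635 and 0.0794, and C3, Igf1, Flt1 and Adcyap1 had adjusted permutation p from 0.336 to 1.0. Igf1 was at 0.5 to 0.9 TPM in microglia and at 0.0 to 0.9 TPM in astrocytes.

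**Figure D4:**
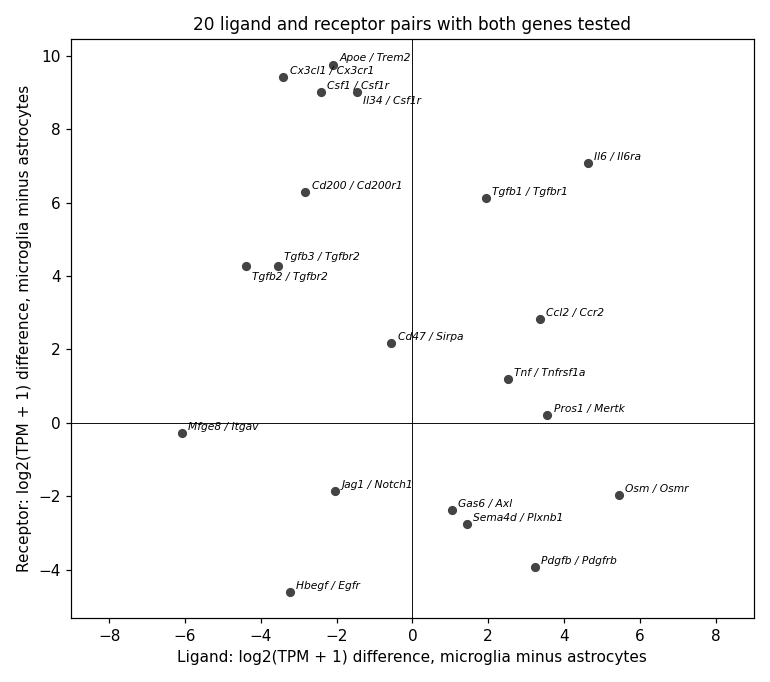
Difference in log2(TPM + 1), control microglia (n = 4) minus control astrocytes (n = 5), of the ligand (x axis) and the receptor (y axis) in the 20 pairs with both genes tested. Pairs at upper left have a ligand higher in astrocytes and a receptor higher in microglia, and those at lower right the reverse.

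Some genes were found in 1 cell type and listed at 0 throughout the other. With at least 10 TPM in each library of its own type, 38 genes of microglia were listed at 0 in all 5 astrocyte libraries, and 98 genes of astrocytes in all 4 microglial libraries. Chosen after their values were seen, Fcgr4, an Fc receptor (mean 35.9 TPM), Il7r (41.7 TPM) and Dock2, a Rac activator of leukocytes (68.9 TPM), were among the former. Gdf10, a BMP family ligand (85.2 TPM), Wnt7a (49.9 TPM) and the forebrain homeobox genes Emx2 (17.6 TPM) and Otx1 (20.6 TPM) were among the latter. For most of the identity genes a small signal remained. In the astrocyte libraries the median homeostatic microglial gene stood at 0.203%, 0.349%, 0.263%, 0.286% and 0.330% of its mean in microglia (animals 1 to 5), and in the microglial libraries the median astrocyte identity gene at 0.059%, 0.067%, 0.134% and 0.068% of its mean in astrocytes. Many single genes exceeded these medians. In astrocytes Sall1, Sparc and Gas6 stood at 12.6%, 22.9% and 47.6% of their microglial mean, Lgmn at 5.40% and Tgfbr2 at 4.24%, among others. In microglia Slc1a3 stood at 5.54% of its astrocyte mean, Id2 at 4.11% and Gfap at 1.22%, among others. Whether those levels belong to the sorted cells or to others was not tested.

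Markers of other cell types were present, chiefly in the astrocyte libraries. The 18 oligodendrocyte markers were all lower in microglia (median -5.68). Without Trf, which microglia also held, they summed to 7240.5, 5505.1, 8181.9, 7908.7 and 7705.9 TPM in astrocytes and to 176.2, 177.7, 71.9 and 75.2 TPM in microglia. Myelin genes were plentiful there, with Cldn11 at 771.9 to 1147.4 TPM and Olig1, a transcription factor of the oligodendrocyte lineage, at 260.7 to 352.9 TPM, and none of the 18 was at 0 in the astrocyte libraries. Omg, Trf and other genes of oligodendrocytes therefore cannot be assigned to astrocytes from these data. Mural and fibroblast-like markers varied between animals. They summed to 496.0, 250.7, 1176.0, 3448.9 and 3122.4 TPM in astrocytes and to 13.4, 14, 115.4 and 34.9 TPM in microglia, and 11 of 12 tested were lower in microglia. Vtn and Rgs5, pericyte genes, were at 244.4, 89.1, 584.9, 1610.1 and 1489.2 TPM and at 109.0, 55.8, 371.7, 1414.0 and 1243.5 TPM. Animals 4 and 5 were high and animal 2 low in both. Pdgfrb, in contrast, stood at 12.4 to 17.4 TPM in all 5. Of 9 endothelial markers tested 5 were lower and 1, Pecam1, higher in microglia. Of 13 neuronal markers 5 were tested and 2 were lower in microglia, with a summed level of 31.6 to 64.3 TPM in astrocytes and 5.8 to 14.3 TPM in microglia.

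Blood and ventricle RNA followed the animal in part. Hba-a1, a haemoglobin chain, was at 109.6, 0.4, 4.9 and 39.6 TPM in microglia and at 172.2, 19.3, 1.1, 32.9 and 382.4 TPM in astrocytes, high in animals 1 and 5 in both cell types (-1.51 ± 1.62, adjusted p = 0.437). With the animal as a block the difference passed the threshold (-2.57, adjusted p = 0.00528), and Hba-a2 likewise (-2.71, adjusted p = 0.00837). The ependymal and choroid plexus markers summed to 16.7, 1311.3, 185.7 and 497.6 TPM in microglia and to 352.3, 734.3, 136.7, 296.3 and 435.2 TPM in astrocytes, highest in animal 2 in both. In the microglia of animal 2 most of that sum was Ttr, transthyretin of the choroid plexus, picked after its values were seen, at 1237.1 TPM there and 14.9 TPM in the microglia of animal 1. In the astrocytes of animals 1 to 5 Ttr was at 44.5, 501.5, 23.1, 201.1 and 257.8 TPM. It was a small part of the sum in animals 1 and 3 and most of it in animals 2, 4 and 5. Ciliary genes such as Dynlrb2, at 16.6 TPM in the microglia of animal 2 and 1.1 TPM or less in the other microglia, were likewise highest in that animal among microglia. Among astrocytes Enkur (69.4 and 27.2 TPM) and Ccdc153 (37.7 and 26 TPM) were higher in animal 1 than in animal 2, and Dynlrb2 (73.3 and 77.9 TPM) slightly lower. Of 8 oligodendrocyte precursor markers 2 were tested, Cspg4 and Matn4, both listed at 0 in all 4 microglial libraries. They passed the filter through astrocyte libraries alone, so their lower level in microglia was fixed by the filter and is no separate result. Of 13 monocyte and neutrophil markers 4 were tested, 2 higher and 1 lower in microglia. All 4 tested erythroid markers missed the threshold, and 7 of 9 tested ependymal and choroid plexus markers were lower in microglia. Of 9 lymphocyte markers 2 were tested and 1 was higher in microglia, Cd79b, at 74.5 to 101.9 TPM in microglia, a gene that microglia are known to express.

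**Figure D5:**
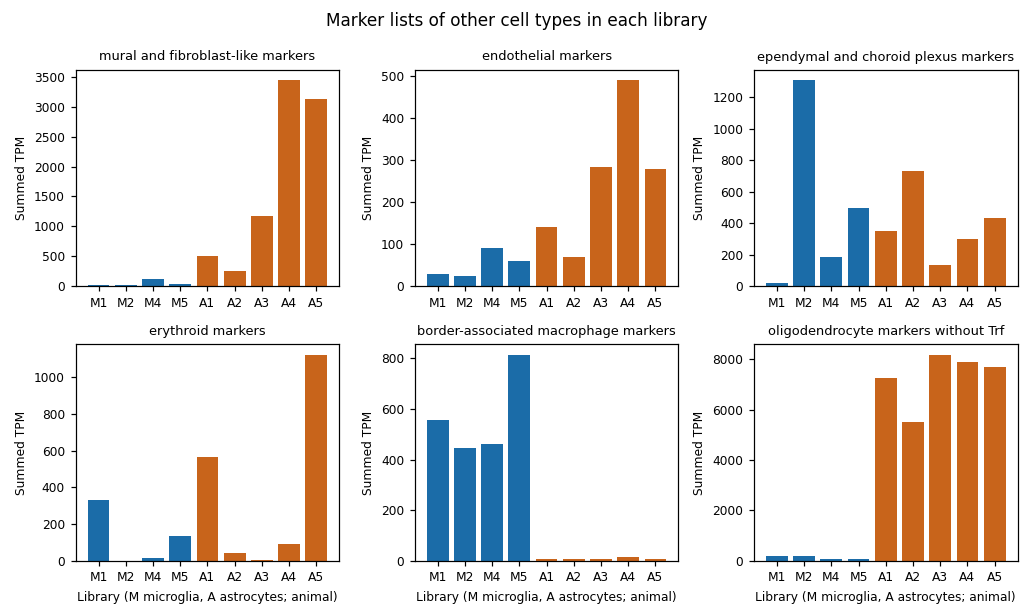
Summed TPM of 6 marker lists of other cell types in each library (M microglia, A astrocytes, with the animal number). Oligodendrocyte and mural markers are high in astrocyte libraries, border-associated macrophage markers in microglial ones, and erythroid markers are high in animals 1 and 5 of both.

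Most genes varied little between animals of 1 cell type. Among genes with a mean of at least 20 TPM, the median standard deviation of log2(TPM + 1) was 0.21 over 4238 genes in microglia and 0.19 over 4484 in astrocytes, and 94.2% and 95.7% lay under 0.5. The exceptions, picked by their spread, were sex-linked genes, haemoglobins and the mural genes above. Xist RNA was present in animals 1 and 2 (32.5 to 48.3 TPM) and listed at 0 in the others, and Y-linked Ddx3y the reverse (46.0 to 56.3 TPM against 0.0 to 0.1 TPM). In microglia the summed ribosomal protein genes were also higher in animals 1 and 2, and the part of sex in that was not tested.

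The difference between cell types was compared between animals 1 and 2 and animals 3 to 5 with an interaction term in limma. It passed an adjusted p of 0.05 for 7 genes (0.0457%), with 1313 at an unadjusted p under 0.05. They included Cldn11, Tubb4a, Ermn, Mal, Mog and BC020402, which were named because they passed, after their values were seen. The first 5 are genes of myelin or of oligodendrocytes. Cldn11 was at 20.3, 24.1, 1.3 and 1.9 TPM in the microglia of animals 1, 2, 4 and 5 and at 771.9 to 1147.4 TPM in astrocytes, and Mog at 6.8, 8.2, 1.0 and 0.6 TPM against 335.8 to 543.7 TPM. The microglia of animals 1 and 2 were high and those of animals 4 and 5 low in all 5. In astrocytes the values of Cldn11, Ermn, Mal and Mog in animals 1 and 2 all lay below those of animals 3 to 5, the opposite order, and those of Tubb4a overlapped. The share of oligodendrocyte RNA in these microglial libraries moved with the sex-linked genes, and with 2 animals of each kind the part of sex and of the sort cannot be told apart. With animals 3, 4 and 5 alone, 3957 genes were higher and 5734 lower in microglia, and with animals 1 and 2 alone 2558 and 4032.

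Genes that dissociation is known to induce were found in both cell types. Of 24 immediate-early and stress genes, 9 were higher and 5 lower in microglia, with 10 not past the threshold, a share of 58.3% called beside 65.7% over all genes. Junb (92.4, 191.2, 215.7 and 199.0 against 4.1 to 36.7 TPM), Zfp36 (406.4 to 597.0 against 38.7 to 67.8 TPM) and Atf3 (16.5 to 33.7 against 0.0 to 3.0 TPM) were higher in microglia. Fos was at 2.4, 4.4, 7.8 and 14.4 TPM in microglia and at 82.6, 104.9, 64.3, 18.8 and 11.2 TPM in astrocytes (-2.59 ± 0.68, adjusted p = 0.0068). Its values overlapped, with astrocytes of animals 4 and 5 near the highest microglial value. Dusp1 and Nr4a1 were higher in astrocytes (-2.89 ± 0.25 and -3.45 ± 0.22). Of 20 reactive astrocyte genes only 11 passed the filter, so the list describes those alone: 7 were higher in astrocytes, led by Gfap and Serpina3n (10.9 to 34.8 TPM), and 3, Srgn, Ggta1 and Stat3, were higher in microglia.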

How the data were processed

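RNA-seq of sorted microglia and astrocytes was compared in control mice. TPM per gene were computed by the authors and used as deposited, with 1 decimal. Per the submitters' processing notes reads were handled with featureCounts 1.6.2, STAR 2.6.1e, cutadapt 1.9.1 and Trim Galore 0.4.2, with mm10 as the build. The annotation, strand setting and handling of reads with several matches are not given in the sources used here, so overlapping or near-identical genes may share reads. TPM keep no depth, and no interval for counting error is given. The labels state about 60M reads, paired, without values per library.

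Gene symbols were matched to GENCODE M21 for positions and to RefSeq GRCm38.p6 for promoters. Values were tested as log2(TPM + 1) with limma 3.58.1 (trend, control libraries only, no block) in R 4.3.3, with Benjamini-Hochberg adjustment over the 15332 genes that reached 1 TPM in 4 or more of the 9 libraries. Means are given with the standard error of the difference. Sums, promoter searches and plots used Python 3.11.15 with pandas 2.3.3, numpy 2.4.6, scipy 1.17.1 and matplotlib 3.10.9. The fits were tested on simulated data. Groups came from the labels, where each number is a mouse. The replicates are therefore animals, but the labels give no batch, and p-values measure the spread between these animals.

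Microglia and astrocytes with the same mouse number came from 1 animal. Deviations of same-numbered libraries from their group means correlated at 0.096, 0.121, 0.220 and 0.131 (animals 1, 2, 4 and 5), and those of differently numbered libraries at -0.135 to 0.13.

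The members and the 42 gene lists were chosen with earlier results of these data known and some list members after their values had been seen. Named genes were P2ry12, Slc1a2, Aldoc, Tgfb1, Tmem119, Sall1 and Sox9, the 12 largest differences each way among called genes that averaged 20 TPM or more in the higher type without overlap, and the 10 most abundant genes of each type (predicted, clone and mitochondrially encoded genes left out of the first, mitochondrially encoded genes of the second). They also took, per list, up to 6 called members with the largest differences and up to 3 against the list's main direction, or the 2 with the smallest p where none was called, and every gene of the ligand and receptor pairs. Other genes are marked in the text as picked after their values were seen. Alternatives covered the pseudocount, the filter, the scaling, the variance model, the animal block, the libraries in the fit and leaving out each library. Some genes that met the rule are not reported here.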

Additional observations from a re-analysis of the deposited data

Results flagged for a closer look

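In groups of 4 or 5 libraries, a library was noted where its distance to the nearest other value was large beside the range of the group, and chance alone marks about 1 group in 20. Of 155 groups over 94 genes, 7 were marked. In microglia, animal 1 stood above the others for Tgfb1 (3.4 TPM, others 2.8 to 2.9), Mir6961 (1730.3 TPM, others 1359.4 to 1399.0), Pantr1 (2.3 TPM, others 0.0 to 0.2) and C3 (3.0 TPM, others 0.5 to 0.8). In astrocytes, animal 1 was low in Tmem119 (0.5 TPM, others 5.6 to 6.9), and animal 2 was high in Fcrls (7.2 TPM, others 1.6 to 2.8) and Pld4 (5.3 TPM, others 1.8 to 2.4). Apart from C3, whose groups overlapped, no value so marked reached the range of the other cell type.

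The difference between cell types itself differed between animals 1 and 2 and animals 3 to 5 for 7 genes by the interaction term in limma, with adjusted p from 0.00808 to 0.0319. The change in log2 difference was 3.50 for Cldn11, 2.77 for Tubb4a, 2.86 for Ermn, 2.35 for Mal and 2.62 for Mog, and all 5 were higher in the microglia of animals 1 and 2. For BC020402 it was -3.42, with 0.1, 0.1, 7.1 and 11.1 TPM in the microglia of animals 1, 2, 4 and 5 and 15.4, 18.7, 13.2, 17.4 and 12.3 TPM in astrocytes.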

How the results depend on the processing

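Of 295 named genes tested, 262 kept their direction and their side of the threshold under all 22 alternatives. Over the other genes there were 68 losses and 3 gains of a call, and 2 turns of direction, both under quantile normalization: Cd81 (-0.16, adjusted p = 0.107 with limma) and Igf1r (0.027, adjusted p = 0.89). The median difference of all genes moved to -0.23 with a pseudocount of 0.1 TPM, -0.12 with 5 TPM, -0.055 with no filter, -0.14 with a filter of 5 TPM, -0.12 under median-of-ratios scaling, 0.11 under quantile normalization, -0.23 without mitochondrially encoded genes and -0.24 in animals 1 and 2 only. Animals 1 and 2 alone gave 2558 genes higher and 4032 lower, from fewer samples. No other alternative moved these counts by over 1.5 times. Leaving out 1 library in turn gave 3706 to 3979 genes higher, 5752 to 6071 lower and a median from -0.22 to -0.18. The paired fit with the animal as a replicate block called 3825 genes higher and 5909 lower, with 9415 of the 10078 calls kept, and added Hba-a1 and Hba-a2. Of the list medians, 690 stayed within the spread, 230 moved and 2 turned: disease-associated genes with a filter of 5 TPM (-0.34) and purinergic genes in animals 3, 4 and 5 (-0.17). Depth is unknown and values under 0.05 TPM are listed as 0, which limits low genes such as Tgfb1.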

Other observations

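The library in no group, titled as control astrocytes of animal 3 with a sample code like those of microglia, held P2ry12 at 3369.5 TPM, Tmem119 at 2950.4 TPM, Sall1 at 111.3 TPM, Slc1a2 at 0.5 TPM, Aldoc at 9.5 TPM and Sox9 at 1.4 TPM. Over the 15332 genes its r of log2(TPM + 1) was 0.968 to 0.981 with control microglial libraries and 0.565 to 0.594 with control astrocyte libraries. Its oligodendrocyte markers without Trf summed to 71.0 TPM.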
